A study of Mus musculus with 965 samples.

Results

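Embryoid bodies of the Dnmt3b knockout clone 3B126 were compared with wild-type (WT) embryoid bodies at day 3, within batch 2. All 73 cells of the 3B126 plate (C313) and all 74 cells of the WT plate (C315) entered, which is 147 of the 965 cells of the series. The members were chosen by plate, clone and day, and no measured value was used to choose them. 3B126 is 1 clone, labelled 3BKO and homozygous for the Dnmt3b knockout, and WT is the parental E14 genotype, an established mouse embryonic stem cell line. Both were grown with leukemia inhibitory factor and then left to aggregate in low-attachment plates without it. The labels put both plates at 3 days of this culture and in batch 2. Per the study's methods the cells of each clone and day came from 1 pool of embryoid bodies, sorted as single live cells. Values of other day 3 plates are given beside these. They are 3B77, another Dnmt3b knockout clone (batch 3), and the Dnmt3a knockout clones 3A2 and 3A38 (batch 1).

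DNMT3B and DNMT3A are the de novo DNA methyltransferases, which place methyl groups on unmethylated CpG sites as the epiblast leaves naive pluripotency. DNMT1 and its partner UHRF1 copy existing methylation at replication, and the TET enzymes oxidise it. Embryoid bodies at this early time are known to be made mostly of epiblast-like cells that have not yet formed germ layers.

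Each group was 1 plate of cells, so clone, culture and plate cannot be told apart from genotype, and no test was possible. Values are therefore given as levels, shares and folds of these 2 plates, with no p-value. Levels are CPM, reads of a gene per 1000000 reads of the plate sum, after TMM scaling (a correction for RNA composition) over the 5 plates of day 3. Folds are log2((CPM + 1)/(CPM + 1)) of 3B126 over WT, and a gene was counted as past the fold at 4-fold or at 2-fold. Intervals are exact 95% Poisson or binomial intervals. They cover counting error of reads or cells only. Reads without molecular identifiers include PCR copies, so the Poisson intervals are narrower than the counting error of molecules. They also leave out the spread between cells.

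The sums held 31021448 reads in 3B126 and 28038936 reads in WT. Depth per cell was close, with a median of 207399 reads (lowest 51876, highest 2888764) in 3B126 cells and 218902 (72736 to 2556646) in WT cells. Detected genes were fewer in the knockout clone. The median was 3713 (2159 to 5575) in 3B126 cells and 5096 (3247 to 7252) in WT cells. At 50000 reads drawn from every cell it was 2645 in 3B126 and 3498.5 in WT, against 4862, 5102 and 4867.5 on the day 3 plates of 3B77, 3A2 and 3A38, which are of other batches. In all, 68 of the 73 3B126 cells lay below the WT median at this fixed depth, so detection and genotype cannot be told apart in the shares of cells given below. The mitochondrial share of reads had a median of 18.2% in 3B126 cells and 15.7% in WT cells.

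**Figure D1:**
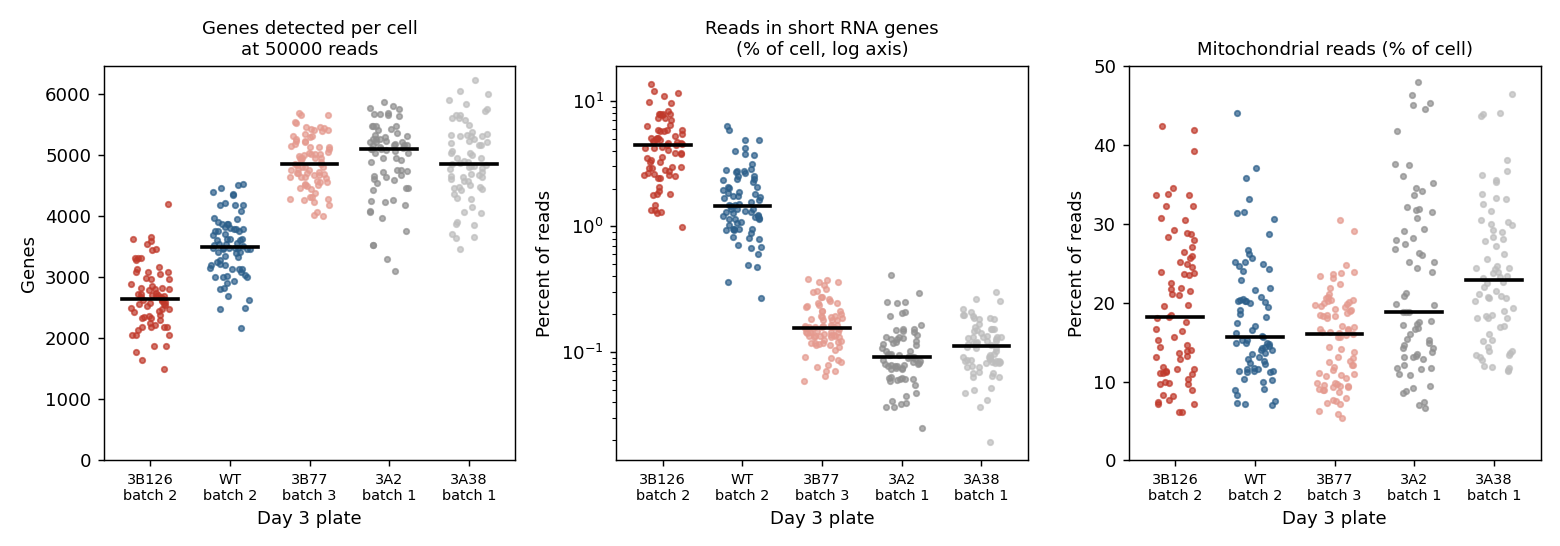
Detected genes per cell at 50000 reads (left), percent of reads in short RNA genes (middle, log axis) and percent of mitochondrial reads (right), 1 point per cell and a bar at the median, on the 5 plates of day 3. Medians of detected genes were 2645 in 3B126 and 3498.5 in WT, and those of the short RNA share 4.44% in 3B126 and 1.46% in WT, with both plates standing apart from the other clones in the first 2 panels.

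Both plates also stood apart from the rest of the series in short RNAs. Genes annotated as small nucleolar RNA (snoRNA), small Cajal body RNA, small nuclear RNA, miscellaneous RNA (Y and 7SK RNA among those tested) or mitochondrial transfer RNA took 4.88% of the reads of the 3B126 plate and 2.01% of those of the WT plate, against 0.0525% to 0.176% on the other 13 plates. Those 13 include the later days of the same 2 lines in the same batch. The part of this difference in the other results was not tested, and results with these reads left out of the scaling are given where they move a count.

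The labelled cells were first checked against markers. Tdgf1, the Nodal coreceptor CRIPTO, had reads in 73 of 73 3B126 cells and in 74 of 74 WT cells, and Utf1, a chromatin factor of the epiblast, in 67 of 73 3B126 cells and 71 of 74 WT cells. Pou5f1 (OCT4) stood at 14.5 CPM in 3B126 and 16.5 CPM in WT, and Nanog at 32.5 CPM in 3B126 and 36.7 CPM in WT. Fewer cells had reads of these. Pou5f1 was seen in 37 of 73 3B126 cells and 56 of 74 WT cells, and Nanog in 45 of 73 3B126 cells and 59 of 74 WT cells. Markers of endoderm, endothelium and fibroblasts were near 0. Gata4 (endoderm), Ttr and Afp (visceral endoderm), Cdh5 (endothelium) and Col3a1 (fibroblast) had no read on either plate. The 4 endoderm markers summed to 64 reads in 2 3B126 cells and 31 reads in 4 WT cells, and the 4 fibroblast markers to 7 reads in 3B126 and 15 reads in WT. Primitive streak markers T, Mixl1, Eomes and Mesp1 were seen in few cells of either plate, with any of them in 10 of 73 3B126 cells and 26 of 74 WT cells. Brachyury (T) itself had no read in 3B126 and 55 reads in 5 WT cells. Neuroectoderm markers were not near 0, the 4 of them summing to 2673 reads in 64 of 73 3B126 cells and 2298 reads in 67 of 74 WT cells. Most of these were from Tubb3, a neuronal tubulin, with 2400 reads in 3B126 and 1699 reads in WT, and their part in the other results was not tested. Sox1, an early neural transcription factor, had 115 reads in 17 of 73 3B126 cells and 4 reads in 3 of 74 WT cells. Nes went the other way, with 16 reads in 3B126 and 120 reads in WT, as did Pax6, with 142 reads in 3B126 and 475 reads in WT.

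The targeted gene was lower in the clone that its label names. Dnmt3b (chr2:153649450-153687730, GRCm38, plus strand) had 27.1 CPM (24.9 to 29.4) in 3B126 and 288.3 CPM (281 to 295) in WT, a log2 fold of -3.36. In cells thinned to 50000 reads it was seen in 17 of 73 3B126 cells (23.3%, 14.2% to 34.6%) and in 69 of 74 WT cells (93.2%, 84.9% to 97.8%). In CPM of single cells by their own read total, without TMM scaling, the median cell had 0 in 3B126 and 177 in WT, and the most any 3B126 cell reached was 150 CPM, while the WT plate reached 998 CPM. The day 3 plate of the other Dnmt3b knockout clone, 3B77, stood at 26.9 CPM, and those of the Dnmt3a knockout clones 3A2 and 3A38 at 201 and 249 CPM. Counts cover the whole gene, so reads from outside a deleted part would remain, and Dnmt3bos overlaps it on the opposite strand.

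Other genes of the methylation machinery differed less. Of the 13 genes on that list, 9 passed the filter of a mean of 5 CPM and reads in 10% of the cells, and Dnmt3b was the one past 4-fold. Tet1, the main 5-methylcytosine oxidase of pluripotent cells, had 621 CPM in 3B126 and 301 CPM in WT (log2 fold 1.04), and Tet2, its relative, 30.2 CPM in 3B126 and 7.96 CPM in WT (log2 fold 1.80). Dnmt3a, the other de novo enzyme, had 195 CPM in 3B126 and 143 CPM in WT. The maintenance methyltransferase Dnmt1 had 60.6 CPM in 3B126 and 127 CPM in WT (log2 fold -1.06, or -0.45 in thinned cells), and its recruiter Uhrf1 123 CPM in 3B126 and 81.2 CPM in WT. Tdg, a glycosylase that excises oxidised methylcytosine, had 2.69 CPM in 3B126 and 7.62 CPM in WT. Cdca7, a partner of the remodeller Hells, had 47.1 CPM in 3B126 and 55.5 CPM in WT. Hells had 567 CPM in 3B126 and 438 CPM in WT, yet its log2 fold was -0.24 in thinned cells, so its direction depended on the setting. The remaining 4 genes, Dnmt3l, Tet3, Zbtb24 and Dppa3, did not pass the filter.

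Across the 7368 genes that passed it, 428 were 4-fold or more higher in 3B126 (5.81%) and 339 were 4-fold or more lower (4.60%). At 2-fold the counts were 1376 higher (18.7%) and 1293 lower (17.5%). With every cell thinned to 50000 reads they came to 228 higher (3.09%) and 227 lower (3.08%) at 4-fold, and with the mean of the CPM of each cell to 212 higher (2.88%) and 199 lower (2.70%). For comparison, the same rule was put to 2 clones of 1 genotype and batch, 3A2 over 3A38 at day 3. It placed 298 of 8429 genes 4-fold or more higher (3.54%) and 183 lower (2.17%). After thinning it placed 183 higher (2.17%) and 78 lower (0.925%). The pairs were not matched in detection. Medians of detected genes at 50000 reads were 5102 in 3A2 and 4867.5 in 3A38, against 2645 in 3B126 and 3498.5 in WT. The part of this in the counts was not tested. Scaling moved the balance of the 2 directions. With plain CPM by the plate total, where the median gene stood at a log2 fold of -0.33 against -0.01 with TMM, 272 genes were 4-fold or more higher and 455 lower. By chromosome, the median log2 fold ran from -0.17 on the X chromosome to 0.15 on chromosome 14 over the autosomes and X.

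**Figure D2:**
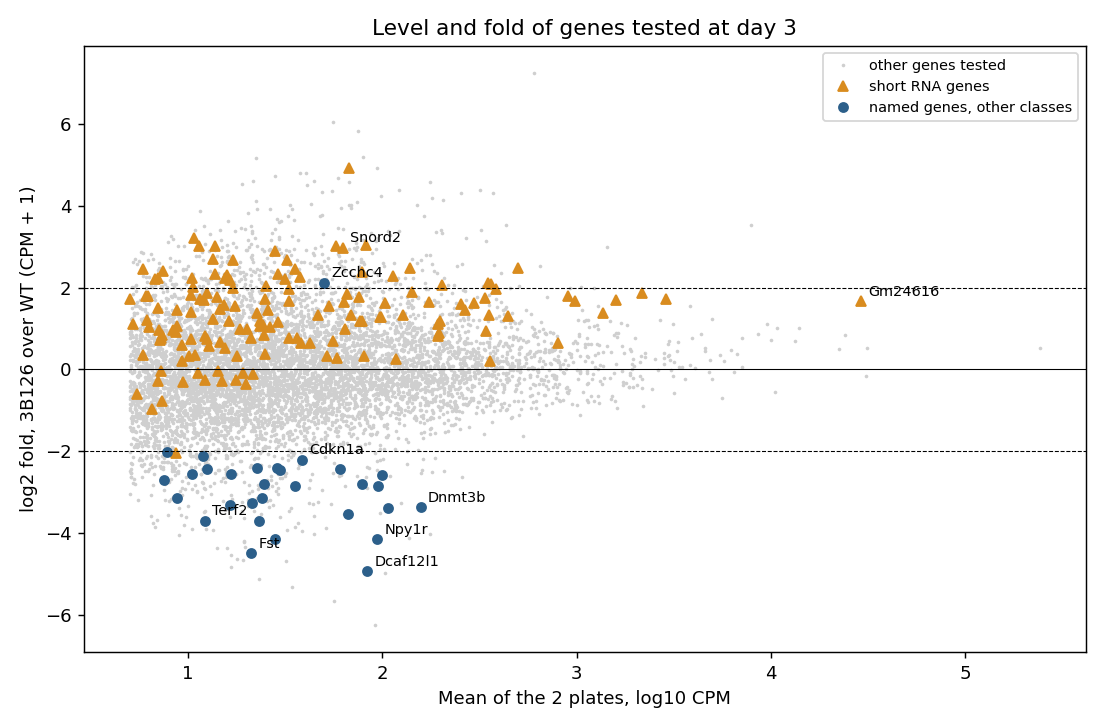
Log2 fold of 3B126 over WT (y axis) against the mean level of the 2 plates (x axis, log10 CPM) for the 7368 genes tested, with dashed lines at 4-fold. Triangles mark the 147 short RNA genes, whose median log2 fold was 1.34, and filled circles the named genes of other classes, 29 of them below the lower line.

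Because reads of a few cells can carry a plate sum, genes were named when they were past 4-fold in the sums, in thinned cells and in the mean of cells, and when the share of thinned cells with a read differed by 20 percentage points or more the same way. In all, 5 genes were higher in 3B126 by these 4 conditions (0.0679% of those tested) and 29 were lower (0.394%). The last condition is not even-handed, since 1173 of the genes tested (15.9%) had a share at least 20 points lower in 3B126 and 19 (0.258%) a share as much higher.

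Of the 5 genes higher in 3B126, 4 were short RNAs, shown here with their most abundant relatives. The cDNA was primed with oligo-dT on polyadenylated RNA, and capitals mark the first of the longest runs of A in each sequence. The sequences are GENCODE M21 transcripts on GRCm38, written as DNA. Gm24616 (chr16:23111617-23111755, plus strand), Gm24201 (chr16:23110383-23110507, plus strand) and Snord2 (chr16:23108953-23109021, plus strand) lie within Eif4a2, Gm24452 (chr19:8724531-8724602, plus strand) lies within Snhg1, Gm22786 (chr1:86087301-86087422, plus strand) within Psmd1, and mt-Tm (chrM:3845-3913, plus strand) is the mitochondrial methionine transfer RNA.
Gm24616: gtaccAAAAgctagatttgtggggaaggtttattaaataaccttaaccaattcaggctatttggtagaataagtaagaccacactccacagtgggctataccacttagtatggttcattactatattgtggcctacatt
Gm24201: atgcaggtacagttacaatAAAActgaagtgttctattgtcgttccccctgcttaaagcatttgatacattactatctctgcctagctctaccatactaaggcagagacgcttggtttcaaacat
Snord2: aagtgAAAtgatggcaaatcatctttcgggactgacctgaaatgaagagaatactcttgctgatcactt
Gm24452: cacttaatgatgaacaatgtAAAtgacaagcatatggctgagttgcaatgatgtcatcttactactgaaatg
Gm22786: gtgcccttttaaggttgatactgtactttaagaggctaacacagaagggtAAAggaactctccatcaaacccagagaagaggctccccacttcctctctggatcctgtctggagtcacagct
mt-Tm: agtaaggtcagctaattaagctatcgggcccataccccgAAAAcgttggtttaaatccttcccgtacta
Their longest runs held 3 or 4 bases, where the median over 546 snoRNA transcripts was 3 and 78.02% of them held a run of 3 or more. These runs are a description, and their part in the counts was not tested.

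snoRNAs guide chemical modification of ribosomal RNA and are mostly cut from introns of host genes. Gm24452 had 147 CPM (142 to 152) in 3B126 and 17.1 CPM (15.4 to 18.8) in WT, and Snord2, which guides 2'-O-methylation, 111 CPM (107 to 116) in 3B126 and 13.3 CPM (11.9 to 14.9) in WT. Snord2 was seen in 59 of 73 thinned 3B126 cells (80.8%) and 25 of 74 thinned WT cells (33.8%). Gm22786 had 52.6 CPM in 3B126 and 10.5 CPM in WT, and mt-Tm 27.7 CPM in 3B126 and 5.29 CPM in WT. The fifth gene, Zcchc4, encodes a methyltransferase that modifies 28S ribosomal RNA. It had 81.7 CPM (77.8 to 85.7) in 3B126 and 18.1 CPM (16.4 to 19.9) in WT, with reads in 63 of 73 thinned 3B126 cells and 40 of 74 thinned WT cells. Its log2 fold was 2.12, and it was past 4-fold in 7 of 13 alternative settings, falling to 0.76 in cells with 3000 to 5000 detected genes. No annotated short RNA lies in its exons. For mt-Tm the fold was past 4-fold in 8 of the 13 and for Gm22786 in 10. All 5, chosen as higher in 3B126 than in WT, had their highest CPM in 3B126 among the 5 plates of day 3.

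The direction held across the short RNA genes as a class, which was described after its first members had been seen. Of 120 snoRNAs tested, 29 were 4-fold or more higher in 3B126 and 1 was lower, where 5.81% and 4.60% of all genes tested were, and their median log2 fold was 1.31. In 12 mitochondrial transfer RNAs the median was 1.70, in 6 small Cajal body RNAs 0.84, in 6 small nuclear RNAs 1.05 and in 3 Y and 7SK RNAs 1.17, against -0.03 in 6829 protein-coding genes. Summed over the class, snoRNAs had 62769 CPM in 3B126 and 20497 CPM in WT, and 1037, 770 and 903 CPM on the plates of 3B77, 3A2 and 3A38. Gm24616 alone had 44329 CPM in 3B126 and 13902 CPM in WT, and 395, 116 and 208 CPM in those other clones. The 1 snoRNA past 4-fold lower, Gm22579, had 57 reads in 3B126 and 339 reads in WT. Rny3, a Y RNA, had 569 CPM in 3B126 and 130 CPM in WT.

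The difference lay in most cells. The short RNA share of reads had a median of 4.44% (0.993% to 13.7%) in 3B126 cells and 1.46% (0.266% to 6.27%) in WT cells. In all, 68 of 73 3B126 cells were above the WT median and 16 were above the highest WT cell, so the plates overlapped but were shifted. Genes that host these RNAs had a median near that of all genes. The 65 tested snoRNAs and small Cajal body RNAs that lie outside the exons of a tested host on the same strand had a median log2 fold of 1.22, and their 53 hosts a median of -0.12, 25 of the hosts being above 0. Snord2 and Gm24201, which lie inside exons of Eif4a2, and Gm24452, inside an exon of Snhg1, were left out of this comparison. Eif4a2, a translation initiation helicase, had 50.9 CPM in 3B126 and 37.2 CPM in WT. Psmd1, a proteasome subunit and the host of Gm22786, was higher as well, at 728 CPM in 3B126 and 183 CPM in WT. Within 3B126, cells with a larger short RNA share had fewer detected genes at the fixed depth (Pearson's r = -0.50 and Spearman's rho = -0.43 over 73 cells of 1 plate), and within WT the values were -0.23 and -0.21 over 74 cells. Both measures come from the same reads of a cell, and these are descriptions.

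**Figure D3:**
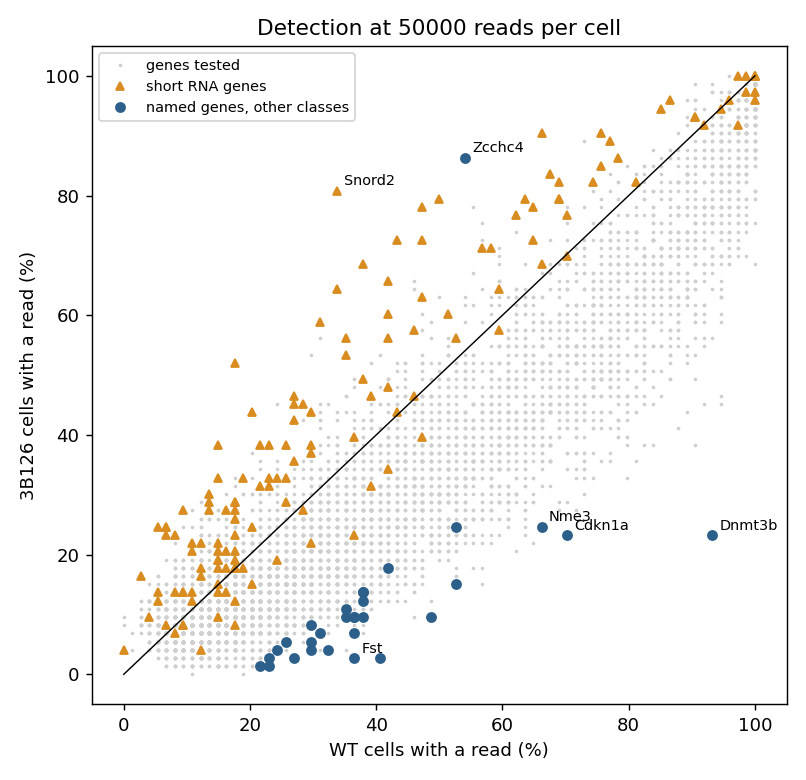
Percent of 3B126 cells (y axis) and of WT cells (x axis) with at least 1 read of each gene tested after thinning to 50000 reads, with the line of equal shares. Most genes lie below the line, Dnmt3b furthest among the named genes (23.3% of 3B126 cells and 93.2% of WT cells), while 116 of the 147 short RNA genes lie above it.

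The 29 genes lower in 3B126 were of many kinds, and 27 of them were protein-coding. Fst, which encodes follistatin, a secreted inhibitor of activin, had 0.882 CPM (0.523 to 1.39) in 3B126 and 41.4 CPM (38.8 to 44.1) in WT, with reads in 2 of 73 thinned 3B126 cells and 27 of 74 thinned WT cells. On the other plates of day 3 it ranged widely, with 6.98 CPM in 3B77, 10.7 CPM in 3A2 and 59.4 CPM in 3A38. Npy1r, a neuropeptide Y receptor, had 9.16 CPM in 3B126 and 179 CPM in WT, and the 3 other clones had 0.536 to 4.78 CPM, so WT was the plate that stood apart. In cells with 3000 to 5000 detected genes its log2 fold was -0.42, against -4.15 in all cells. Dcaf12l1, on the X chromosome, had the largest fold of the 29 in the sums, with 4.36 CPM in 3B126 and 162 CPM in WT (log2 fold -4.93), and reads in 2 of 73 thinned 3B126 cells and 17 of 74 thinned WT cells.

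Cdkn1a, the cyclin-dependent kinase inhibitor p21, had 13.03 CPM (11.5 to 14.7) in 3B126 and 63.99 CPM (60.8 to 67.3) in WT, with reads in 17 of 73 thinned 3B126 cells (23.3%) and 52 of 74 thinned WT cells (70.3%). It stood at 12.7, 10.5 and 10.1 CPM in 3B77, 3A2 and 3A38, all close to 3B126 and not to WT. Btg2, an antiproliferative gene, had 3.18 CPM in 3B126 and 21.7 CPM in WT. Of the 15 p53 targets tested, 2 were 4-fold or more higher and 3 were 4-fold or more lower (5.81% and 4.60% of all genes tested), with a median log2 fold of -0.02. Named here after their values were seen, the third lower one was Perp, a gene of cell death and adhesion, with 2.84 CPM in 3B126 and 35.2 CPM in WT. The higher ones were Bbc3, which encodes the death factor PUMA, with 15.7 CPM in 3B126 and 0.732 CPM in WT, and Mdm2, the ubiquitin ligase of p53, with 79.3 CPM in 3B126 and 13.4 CPM in WT. The log2 fold of Mdm2 was 2.48 in the sums and 0.22 in thinned cells. Perp, Bbc3 and Mdm2 were past 4-fold in the plate sums but did not meet all 4 conditions of naming.

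Tcf7, a nuclear effector of Wnt signalling, had 5.44 CPM in 3B126 and 43.6 CPM in WT. Lhx2, a homeobox factor of forebrain and eye, had 7.89 CPM in 3B126 and 63.1 CPM in WT, with reads in 1 of 73 thinned 3B126 cells and 16 of 74 thinned WT cells. Phlda2, an imprinted growth regulator of placenta, had 2.16 CPM in 3B126 and 30.6 CPM in WT.

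Genes with other roles were among the 29 as well. Terf2, a telomere-binding protein of the shelterin complex, had 0.882 CPM in 3B126 and 23.5 CPM in WT. Ube2a, a ubiquitin-conjugating enzyme, had 17.8 CPM (16.04 to 19.8) in 3B126 and 196 CPM (191 to 202) in WT, and 291.1, 180 and 140 CPM in 3B77, 3A2 and 3A38, so that by level 3B126 stood apart. By share of thinned cells both plates did, with 24.7% in 3B126 and 52.7% in WT, against 86.96% to 96.2% in the other clones. Uba3, a subunit of the enzyme that activates NEDD8, had 27.6 CPM in 3B126, 171 CPM in WT and 136 to 227 CPM in the other clones, with shares of 13.7% in 3B126, 37.8% in WT and 86.96% to 95.7% in those clones. Mthfd2l, a mitochondrial folate enzyme, had 2.11 CPM in 3B126 and 53.8 CPM in WT, and Adpgk, an ADP-dependent glucokinase, 9.85 CPM in 3B126 and 124 CPM in WT. In cells with 3000 to 5000 detected genes the log2 folds of Adpgk, Uba3 and Lhx2 were -0.81, -0.49 and -0.97, no longer past 4-fold. Wfdc2, Rnf6, Tbc1d32 and Cenpp were also among the 15 with the largest folds, with log2 folds of -2.86 (Cenpp) to -3.72 (Wfdc2). Wfdc2 was past 4-fold in all 13 alternative settings. Rnf6, Tbc1d32 and Cenpp were in 12 of them, and had -1.58, -1.85 and -1.38 in the setting that remained for each. The other 14 lower genes included N6amt1, a methyltransferase of a translation release factor, with 2.30 CPM in 3B126 and 18.6 CPM in WT. Nme3, a nucleoside diphosphate kinase, had 8.38 CPM in 3B126 and 50.8 CPM in WT. Uba3, N6amt1 and Nme3 were picked from these 14 after their values were seen. By CPM over the 29, 3B126 was the lowest of the 5 plates for 21 genes and WT the highest for 26. The other 3 plates were of other batches. The 29 were chosen as lower in 3B126 than in WT, so part of this order was set in advance. By share of thinned cells the order could differ. Raph1 was seen in 37.8% of WT cells and in 63.3% to 69.6% in 3B77, 3A2 and 3A38. Its log2 fold was -2.81 in the sums and past 4-fold in 12 of 13 alternative settings, but -0.28 in the remaining setting. Cdkn1a was seen in 70.3% of WT cells and in 24.3% to 40.5% in those clones. For 14 of the 34 named genes another gene lies on the opposite strand, whose reads cannot be told apart here because the strand setting of the counting was not stated.

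**Figure D4:**
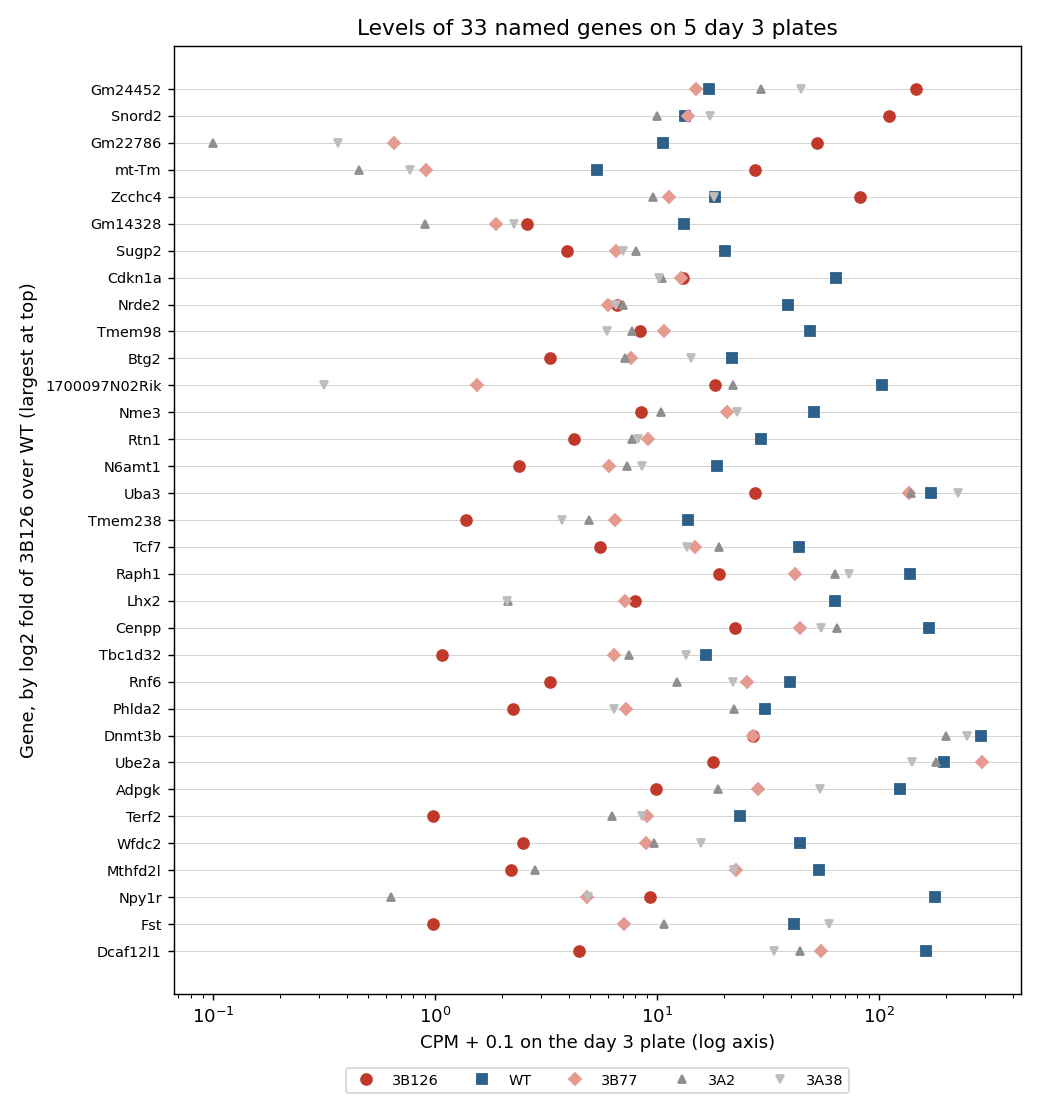
CPM + 0.1 (x axis, log axis) of 33 named genes (y axis, ordered by the log2 fold of 3B126 over WT) on the 5 plates of day 3, 1 point per plate. Red circles show 3B126 and blue squares WT. WT was the highest plate for 25 of the 28 lower genes plotted, and 3B126 the highest for the 5 at the top.

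In the sums the pluripotency lists had medians near that of all genes. Of 12 core genes tested, 1 was 4-fold or more higher and none lower, with a median log2 fold of 0.13 beside -0.01 over all genes. Dppa2, a chromatin factor of early embryos, had 684 CPM in 3B126 and 134 CPM in WT in the sums, with a log2 fold of 2.35, or 1.71 in thinned cells. Its share of thinned cells was 52.1% in 3B126 and 48.6% in WT. Tdgf1 had 794 CPM in 3B126 and 430 CPM in WT. Sox2 had 161 CPM in 3B126 and 55.5 CPM in WT (log2 fold 1.52, or 0.63 in thinned cells), with shares of 46.6% in 3B126 and 47.3% in WT. The 12 naive genes tested had a median of 0.12 in the sums, with none past 4-fold. Their median came to 0.30 in thinned cells and 0.43 in the mean of cells. In the mean of cells the Nodal list and the Fgf and Erk feedback list, described below, had medians of 0.42 and 0.41. Dppa5a, an RNA-binding protein of pluripotent cells, was level at 369 CPM in 3B126 and 370 CPM in WT.

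Primed epiblast and Nodal genes had medians above that of all genes. Of 13 primed genes tested 10 were above 0, with a median log2 fold of 0.50, and Fst was the 1 past 4-fold. Lefty2, a Nodal antagonist that Nodal itself induces, had 1518 CPM in 3B126 and 665 CPM in WT, although its share of thinned cells was 61.6% in 3B126 and 82.4% in WT. Zic2, a zinc finger factor of the epiblast, had 599 CPM in 3B126 and 345 CPM in WT, and Lefty1 122 CPM in 3B126 and 92.0 CPM in WT. Otx2, a homeobox factor of the primed state, had 155 CPM in 3B126 and 45.6 CPM in WT, a log2 fold of 1.74 that came to 0.66 in thinned cells. In reads summed per thinned cell, the primed list had a median of 80 (lowest 0, highest 347) in 3B126 cells and 49.5 (4 to 190) in WT cells, so the ranges overlapped widely. The number of primed genes detected per thinned cell went the other way, with a median of 5 in 3B126 and 6 in WT. Smad4 and Skil, a signal transducer of the pathway and its feedback inhibitor, had 201 and 156 CPM in 3B126, against 117 and 70.3 CPM in WT. The Nodal list, which shares Lefty1, Lefty2 and Nodal with the primed list, had a median log2 fold of 0.51 over 12 genes. Its summed reads had medians of 90 in 3B126 cells and 57 in WT cells, and its number of detected genes medians of 4 in 3B126 and 5 in WT. The 12 Fgf and Erk feedback genes had a median log2 fold of 0.66 with none past 4-fold, among them Etv5, a transcription factor induced by Fgf, with 107 CPM in 3B126 and 67.5 CPM in WT, and Spry2, a feedback inhibitor, with 107 CPM in 3B126 and 48.4 CPM in WT.

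**Figure D5:**
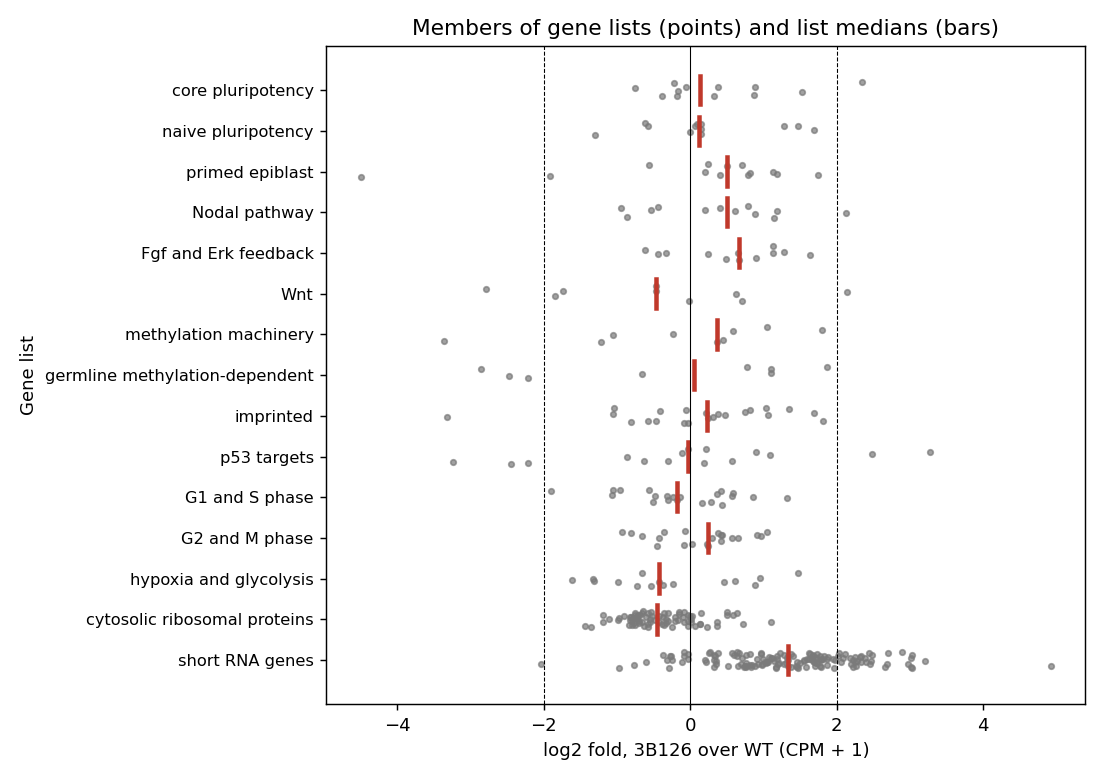
Log2 fold of 3B126 over WT (x axis) of the tested members of 14 gene lists and of the short RNA genes (y axis), 1 point per gene with a bar at the median and dashed lines at 4-fold. Medians lay between -0.47 (Wnt) and 0.66 (Fgf and Erk feedback) for the 14 lists, and at 1.34 for the short RNA genes.

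Genes of glycolysis and the hypoxia response had a median below that of all genes. Their median log2 fold was -0.43 over 15 genes, 10 of them below 0 and none past 4-fold. Ldha, which makes lactate, had 119 CPM (114 to 124) in 3B126 and 297 CPM (290 to 304) in WT, with reads in 46.6% of thinned 3B126 cells and 94.6% of thinned WT cells. Hk2, a hexokinase, had 121 CPM in 3B126 and 241 CPM in WT, in 45.2% of thinned 3B126 cells and 94.6% of thinned WT cells. Pkm, a pyruvate kinase, had 125 CPM in 3B126 and 168 CPM in WT, in 82.2% of thinned 3B126 cells and 94.6% of thinned WT cells. Gapdh had 154 CPM in 3B126 and 244 CPM in WT, in 94.5% of thinned 3B126 cells and 98.6% of thinned WT cells. On the plates of 3B77, 3A2 and 3A38, Ldha stood at 416 to 493 CPM and Gapdh at 1001 to 1514 CPM. Pkm stood there at 266 to 826 CPM and Hk2 at 17.7 to 69.1 CPM. Summed per thinned cell, the list had a median of 43 reads (1 to 219) in 3B126 cells and 80 reads (13 to 188) in WT cells. Cytosolic ribosomal protein genes lay on the same side, with a median log2 fold of -0.46 over 78 genes, 62 of them below 0 and none past 4-fold. Their share of reads had a median of 8.94% in 3B126 cells and 11.1% in WT cells.

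Mitochondrially encoded genes lay on the other side, with all 21 tested above 0 and a median log2 fold of 1.24, or 0.86 in thinned cells. Of these, 12 were transfer RNAs already counted among the short RNAs. The 7 protein-coding genes among the 21 had a median of 0.86, or 0.52 in thinned cells. The gene mt-Co1, a subunit of cytochrome oxidase, had 14380 CPM in 3B126 and 7124 CPM in WT. Cell cycle genes were close. The 21 genes of G1 and S phase had a median of -0.18, with Pcna, the replication clamp, at 868 CPM in 3B126 and 1285 CPM in WT, and the 21 of G2 and M phase a median of 0.25, with Top2a, a topoisomerase of dividing cells, at 3791 CPM in 3B126 and 2801 CPM in WT.

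Lineage and stress lists were mixed. Of 7 neuroectoderm genes tested, 2 were 4-fold or more higher and 1, Lhx2, was lower (5.81% and 4.60% of all genes tested). Tubb3 had 118 CPM in 3B126 and 73.1 CPM in WT, and Sox11, a neural progenitor factor, 104 CPM in 3B126 and 135 CPM in WT. Of 9 Wnt genes, 1 was 4-fold or more higher and Tcf7 was the 1 lower, beside the same shares of all genes, with a median log2 fold of -0.47 that came to 0.06 in thinned cells. Ccnd1, which encodes cyclin D1, had 256 CPM in 3B126 and 166 CPM in WT, and the receptor gene Fzd7 125.6 CPM in 3B126 and 174 CPM in WT. Of 9 genes of the integrated stress response, 1 was 4-fold or more higher. This was Atf4, its main transcription factor, with 272 CPM in 3B126 and 49.7 CPM in WT, although its share of thinned cells was 46.6% in 3B126 and 45.9% in WT. The 17 genes of cholesterol synthesis had a median of -0.05, with none past 4-fold.

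Groups known to depend on DNA methylation were looked at next. Of 39 germline genes silenced by promoter methylation in somatic cells, 8 passed the filter, with a median log2 fold of 0.06, none 4-fold or more higher and 3 lower, where 5.81% and 4.60% of all genes tested were. At 2-fold, 3 were higher and 3 lower, where 18.7% and 17.5% of all genes tested were. Sycp3, a protein of the meiotic chromosome axis, had 114 CPM in 3B126 and 52.3 CPM in WT, yet in 15.1% of thinned 3B126 cells and 29.7% of thinned WT cells. Tex15, of male meiosis, had 14.8 CPM in 3B126 and 113 CPM in WT, in 5.48% of thinned 3B126 cells and 10.8% of thinned WT cells. Tex19.1 had 85.8 CPM in 3B126 and 22.7 CPM in WT, and Rpl10l 19.2 CPM in 3B126 and 8.39 CPM in WT. In thinned cells the log2 folds of Sycp3, Tex19.1 and Rpl10l were 0.15, 0.47 and 0.51, and that of Tex15 was -2.30. Of 22 imprinted genes tested, Phlda2 was the 1 past 4-fold, and the median was 0.23, or -0.05 in thinned cells. Of 52 clustered protocadherins and 36 Hox genes, none passed the filter. Summed, the protocadherins had 374 reads (18.3 CPM) in 3B126 and 84 reads (3.61 CPM) in WT, and the Hox genes 193 reads in 3B126 and 141 reads in WT.

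Y-linked transcripts separated the plates. E14 is a male line. Ddx3y, an RNA helicase, Eif2s3y, a translation factor, and Uty, a histone demethylase, had no read in 3B126 and 56, 133 and 92 reads in WT. Of the other 5 Y-linked genes on the list, Kdm5d had 1 read in 3B126 and 1 read in WT. Any of the 3 was seen in 0 of 73 3B126 cells, where 3 cells would be 4.11%, and in 29 of 74 WT cells (39.2%, 28.0% to 51.2%). Against a floor of 3 reads over the 3B126 plate, Eif2s3y was at least 38.9-fold lower in 3B126. The 3B77 plate had 0 of 79 cells, and those of 3A2 and 3A38 had 32 of 69 and 8 of 70 cells. Xist, the X-linked RNA of X inactivation, did not separate the plates, with 13140 reads in 34 of 73 3B126 cells and 11346 reads in 44 of 74 WT cells. Tsix, its antisense transcript, had 119 reads in 3B126 and 654 reads in WT. With the strand setting not stated, reads of the pair cannot be told apart. Y-linked transcripts and the Dnmt3b genotype therefore differed together, and their parts in any other difference between the 2 plates cannot be told apart.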

How the data were processed

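Libraries were full-length Smart-seq2 from single sorted live cells, without molecular identifiers. The deposited values are raw counts, one row a gene and one column a cell, which the authors obtained with FastQC 0.11.2, Trim Galore 0.5.0, STAR 2.7.1a and featureCounts 1.6.1 (exons summed by gene name, GENCODE M23, mm10/GRCm38), with reads that mapped to several places left out. The table held 36849 genes, and 0 columns lacked a sample. Doublets were not called, as cells were sorted singly.

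Counts were summed per plate and scaled with TMM factors (edgeR 4.0.16, R 4.3.3) over the 5 day 3 plates, 0.658 for 3B126 and 0.829 for WT. Genes tested had a mean of 5 CPM and reads in 10% of the 147 cells, and the pseudocount was 1. Each cell was also thinned once, by a fixed seed, to 50000 reads. The fold rule was tested on simulated data. Both simulated plates took gene levels and spread from WT cells, before fixed folds were put in. Differences between the real plates in detection and in short RNA reads were not simulated. Named genes were the methylation machinery, up to 15 genes in each direction by 4 conditions (4-fold in sums, thinned cells and the mean of cells, and a share difference of 20 points), members of 32 fixed lists by the same conditions, and up to 4 members of each list with the highest mean CPM. Of the genes that met the 4 conditions, 1 is included in the counts but not reported here by name. Other genes are named from the cell type markers or after their values were seen. The members and lists were chosen with earlier results of these data known. Gene positions, classes and sequences are from GENCODE M21 on GRCm38, in which 49 of the genes tested had no match. No test between the groups was run, as each group was 1 plate. Alternatives covered the scaling (DESeq2 1.42.0 size factors, totals without mitochondrial reads), filter, pseudocount and choice of cells. Figures were made with matplotlib 3.10.9.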

Additional observations from a re-analysis of the deposited data

How the results depend on the processing

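No paired analysis was possible because each group was 1 plate of cells, and for the same reason no replicate could be left out. The log2 fold of Dnmt3b was -3.36, and -3.67 with plain CPM, -3.28 with median-of-ratios size factors, -3.62 with mitochondrial reads left out of the total, -3.63 as the mean of cells and -3.19 with a pseudocount of 5. With mitochondrial and short RNA reads left out of the total, a setting chosen after seeing the data, it was -3.57. Genes 4-fold or more higher (428) numbered 272 with plain CPM, 228 in thinned cells, 212 as the mean of cells, 712 in cells with 3000 to 5000 detected genes (55 3B126 and 32 WT cells), 272 with a filter of 20 CPM, 1007 with no filter and 239 with a pseudocount of 5. Genes 4-fold or more lower (339) numbered 199 as the mean of cells, 594 in cells with at least 4000 detected genes (26 3B126 and 66 WT cells), 142 with a filter of 20 CPM, 747 with no filter and 147 with a pseudocount of 5. At 2-fold the filter of 20 CPM gave 850 higher and 596 lower, and no filter 2982 and 2869. The cause of these moves was not tested, except that a filter changes the number of genes tested (4467 at 20 CPM and 22836 with none). The higher genes were 55.8% of those past 4-fold, 37.4% with plain CPM, 40.5% without mitochondrial reads, 43.4% without mitochondrial and short RNA reads, 45.3% in cells with at least 4000 and 71.6% in cells with 3000 to 5000 detected genes. The median of detected genes in 3B126 minus that in WT was -1383, and -853.5 at 50000 reads and -626 at 20000 reads of nuclear genes. All 34 named genes kept their sign under the 13 alternatives, and 12 were past 4-fold in every one. Part of this was set in advance, since thinned cells and the mean of cells are conditions of naming and also among the 13. A changed filter or pseudocount cannot turn a sign. In cells with 3000 to 5000 detected genes, 20 of the 34 kept a share difference of 20 points. The median of the short RNA genes stayed between 0.84 and 1.42.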

Other observations

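Long and short protein-coding genes lay a little apart. Split by exonic length into quartiles, the shortest genes (up to 2984 bases) had a median log2 fold of 3B126 over WT of -0.26 and the longest (7542 bases and over) one of 0.14, with -0.04 and 0.04 in between. In thinned cells the medians of the shortest and the longest were -0.23 and 0.11.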
